A study of Mus musculus with 16 samples.

Results

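The 41 genes described here are a chosen module of interferon-stimulated antiviral genes, and all 41 were found by symbol among the 24411 genes of the count table. They were followed in engrafted bone marrow-derived brain macrophages and in host microglia of C57BL/6J mice, with and without lipopolysaccharide (LPS, bacterial endotoxin). All mice were wild-type recipients carrying CD45.2 that had been irradiated with 950 cGy at 6 weeks of age and transplanted with congenic wild-type bone marrow carrying CD45.1, so that the unchallenged mice share the irradiation and the graft. Mice 1 to 4 received 2.5 mg/kg LPS by intraperitoneal injection, a challenge outside the brain, and were taken after 12 h. Mice 5 to 8 received none. From the brain of each mouse, CD11b-positive cells that lacked Ly6C/G were sorted by low CD45.1 (engrafted cells) or low CD45.2 (host microglia), which gave 4 groups of 4 libraries. The study's methods place the sort 9 months after transplantation, whereas the sample labels allow 3.5 or 9 months. The engrafted cells had not been irradiated and the host microglia had, so that origin and irradiation cannot be told apart in any comparison of the populations. A lower level in such bulk RNA can come from fewer expressing cells or from less RNA per cell, and these cannot be told apart either.

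Interferons of type I are released by cells that sense microbial products. They bind the receptor formed by Ifnar1 and Ifnar2, whose kinases Jak1 and Tyk2 activate transcription factors such as Stat2. With Irf9 these form a complex that binds the interferon-stimulated response element (ISRE) in the promoters of many genes. LPS reaches this pathway through Tlr4 and the adaptor Ticam1, which lead to Ifnb1, the gene of interferon beta. The products of the target genes sense viral RNA or DNA, degrade RNA, block translation, or hold virus particles in or out of the cell. Microglia are known to hold such genes at a low level in the healthy brain and to raise them in infection, injury and ageing.

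Upstream sequence was read for every member because the ISRE is what is known to link these genes. Windows held the 250 bases before the start of the transcript model in the count table, in the mouse genome NCBI37 (mm9). An ISRE core was searched as GAAA, any 2 bases and GAAA on both strands, with overlapping matches counted singly. It was present in 15 of the 41 members (36.6%) and in 763 of 24341 windows of all genes (3.13%). A gamma-activated site, searched as TTC, any 3 bases and GAA on both strands, was present in 6 members (14.6%) and in 6.84% of all windows, and these letters can overlap an ISRE match. The windows below belong to members whose values are given further on, with the ISRE core or its reverse complement in capitals, 5′ to 3′ on the strand of the gene. Isg15 (chr4:155574928-155575177, minus strand), Zbp1 (chr2:173044424-173044673, minus), Oas3 (chr5:121227669-121227918, minus), Rsad2 (chr12:27141318-27141567, minus) and Bst2 (chr8:74061337-74061586, minus) have matches. Dhx58 (chr11:100565586-100565835, minus) has none and is shown for contrast. Oasl1, Ifitm3, Ifi27l2a and Eif2ak2, whose values are also given further on, have no match either and are not shown. Ifi204 has 1 match and is not shown.
Isg15: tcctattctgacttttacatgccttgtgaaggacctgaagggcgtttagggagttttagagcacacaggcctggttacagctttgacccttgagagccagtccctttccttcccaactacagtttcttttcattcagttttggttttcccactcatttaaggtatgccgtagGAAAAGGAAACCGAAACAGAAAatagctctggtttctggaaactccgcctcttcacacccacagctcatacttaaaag
Zbp1: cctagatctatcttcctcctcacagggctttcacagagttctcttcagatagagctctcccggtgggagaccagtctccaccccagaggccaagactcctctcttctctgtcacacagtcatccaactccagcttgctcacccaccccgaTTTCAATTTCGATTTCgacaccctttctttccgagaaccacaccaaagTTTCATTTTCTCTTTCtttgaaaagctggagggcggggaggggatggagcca
Oas3: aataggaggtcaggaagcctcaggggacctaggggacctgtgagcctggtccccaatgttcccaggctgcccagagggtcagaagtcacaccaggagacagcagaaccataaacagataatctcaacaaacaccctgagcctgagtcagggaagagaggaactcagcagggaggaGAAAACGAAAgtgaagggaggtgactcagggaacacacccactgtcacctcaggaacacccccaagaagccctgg
Rsad2: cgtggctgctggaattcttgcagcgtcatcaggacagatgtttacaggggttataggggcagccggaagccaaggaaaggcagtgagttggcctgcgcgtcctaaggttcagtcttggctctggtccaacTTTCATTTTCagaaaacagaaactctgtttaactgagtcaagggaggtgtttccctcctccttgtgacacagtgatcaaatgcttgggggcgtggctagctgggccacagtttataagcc
Bst2: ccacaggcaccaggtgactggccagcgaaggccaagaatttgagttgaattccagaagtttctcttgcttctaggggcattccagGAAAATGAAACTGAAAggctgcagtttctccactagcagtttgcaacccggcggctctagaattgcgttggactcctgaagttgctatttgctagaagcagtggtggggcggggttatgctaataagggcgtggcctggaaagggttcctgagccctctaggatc
Dhx58: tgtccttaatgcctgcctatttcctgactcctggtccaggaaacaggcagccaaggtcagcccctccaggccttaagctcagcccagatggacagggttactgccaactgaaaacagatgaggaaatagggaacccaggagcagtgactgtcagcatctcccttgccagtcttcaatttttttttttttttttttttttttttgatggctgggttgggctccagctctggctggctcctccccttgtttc
Isg15 holds 3 matches that overlap one another, the nearest ending 57 bases before the start of the gene. Zbp1 holds 4 matches, in pairs that overlap. The single match of Oas3 lies 66 bases before its start and that of Rsad2 lies 111 bases before it. Bst2 holds 2 matches, farther out, at 150 bases. The starts of Isg15, Rsad2, Bst2 and Dhx58 equal a transcript start in the GENCODE annotation of the same genome build. Those of Zbp1 and Oas3 equal none, so their windows rest on the transcript model of the count table. The absence of a match in Dhx58 says only that these letters are not in this window. Of the 15 members called higher with LPS in either population, 8 had an ISRE core (53.3%), and of the other 26 members, 7 had one (26.9%). No test was made of that difference. The 26 include Cmpk2, which could not be tested for LPS in either population, and Oas1a and Ifi44, which could not be tested in host microglia.

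Libraries were prepared by a derivation of MARS-seq, in which polyadenylated RNA is read near its 3′ end, and the deposited values are read counts for each gene. Between 395283 and 1203597 reads were counted per library (median 820587.5). Levels are given as CPM (counts scaled to a common, TMM-adjusted library total), and 3 reads, the most that a count of 0 allows, corresponded to 2.39 to 8.41 CPM. This limit covers counting error only. The engrafted library of LPS mouse 4 was the shallowest, with 395283 reads, and its mean correlation with the other libraries of its group was 0.879, against 0.926 to 0.962 for the other 15 libraries. Members are called higher or lower where they differed by more than 2-fold with an adjusted p under 0.05, by edgeR's quasi-likelihood test fitted and adjusted over all genes that passed the filter for low counts. The microglial marker list (P2ry12, Tmem119, Sall1, Siglech, Slc2a5 and Cx3cr1) summed to 10344 to 12229 CPM in unchallenged host libraries and to 5689 to 6446 CPM in unchallenged engrafted libraries. All 6 markers had reads in every group. In unchallenged engrafted cells 5 of the 6 were called lower than in host microglia (4.73% of all genes), with log2 fold changes down to -4.48. With LPS the list summed to 3193 to 4146 CPM in host and 1282 to 1685 CPM in engrafted libraries.

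Comparing engrafted cells with host microglia in unchallenged brains, 13 of the 41 members were called higher and 0 were called lower. Among all 8042 genes tested, 6.25% were called higher and 4.73% lower. The median log2 fold change was 0.68 over the 39 members tested and 0.02 over all genes. At any fold, 20 members were higher (13.6% of all genes) and 1 was lower (13.7%), and 1 was lower at an unadjusted p under 0.05, Lgals3bp in both cases. DESeq2 and limma also called 0 lower, and they called 13 and 10 members higher. With LPS, 14 members rose in engrafted cells and 0 fell (10.2% and 11.3% of 7609 genes), and 9 rose in host microglia and 0 fell (7.66% and 10.4% of 8238 genes). DESeq2 and limma called 0 members lower in either population, and 1 member per population was lower at an unadjusted p under 0.05. Between the populations of the LPS mice, 15 members were higher in engrafted cells and 0 were lower (6.73% and 4.34% of 7843 genes), with DESeq2 and limma again at 0 and 1 member (Eif2ak2) lower at an unadjusted p under 0.05. The response to LPS itself differed between the populations for 4 members, of which 3 were higher in engrafted cells (2.45% of 8847 genes) and 1 was lower (2.50%). The share of members called higher was above that of all genes in each of the 5 comparisons, a description and not a test, since the members were chosen with results known.

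**Figure D1:**
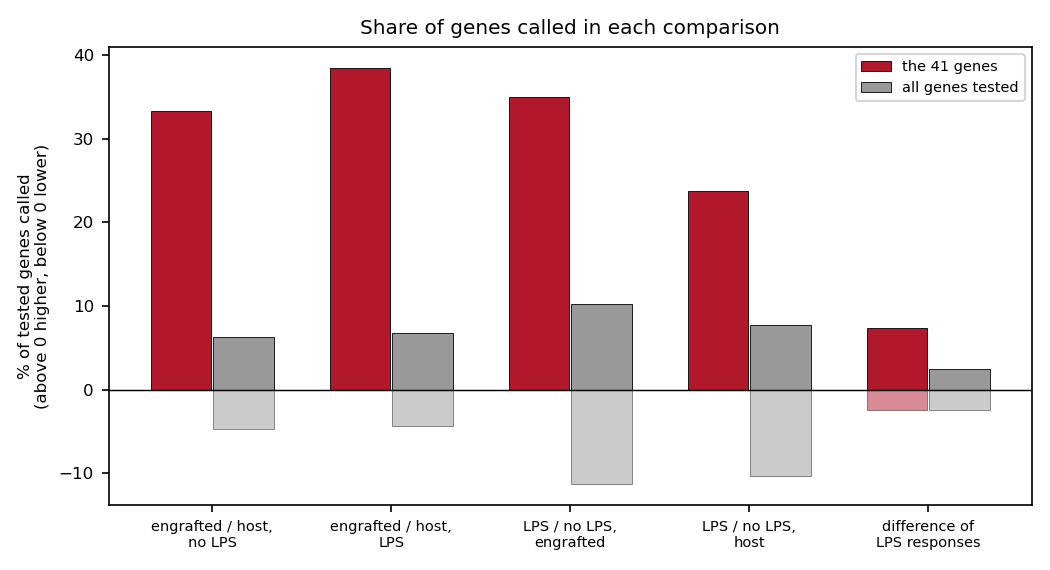
Share of tested genes called in each of the 5 comparisons, in percent, for the 41 genes (red) and for all genes tested (grey). Bars above 0 are genes called higher and bars below 0 genes called lower. The 41 genes had calls below 0 only for the difference of LPS responses, where Eif2ak2 was called.

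**Figure D2:**
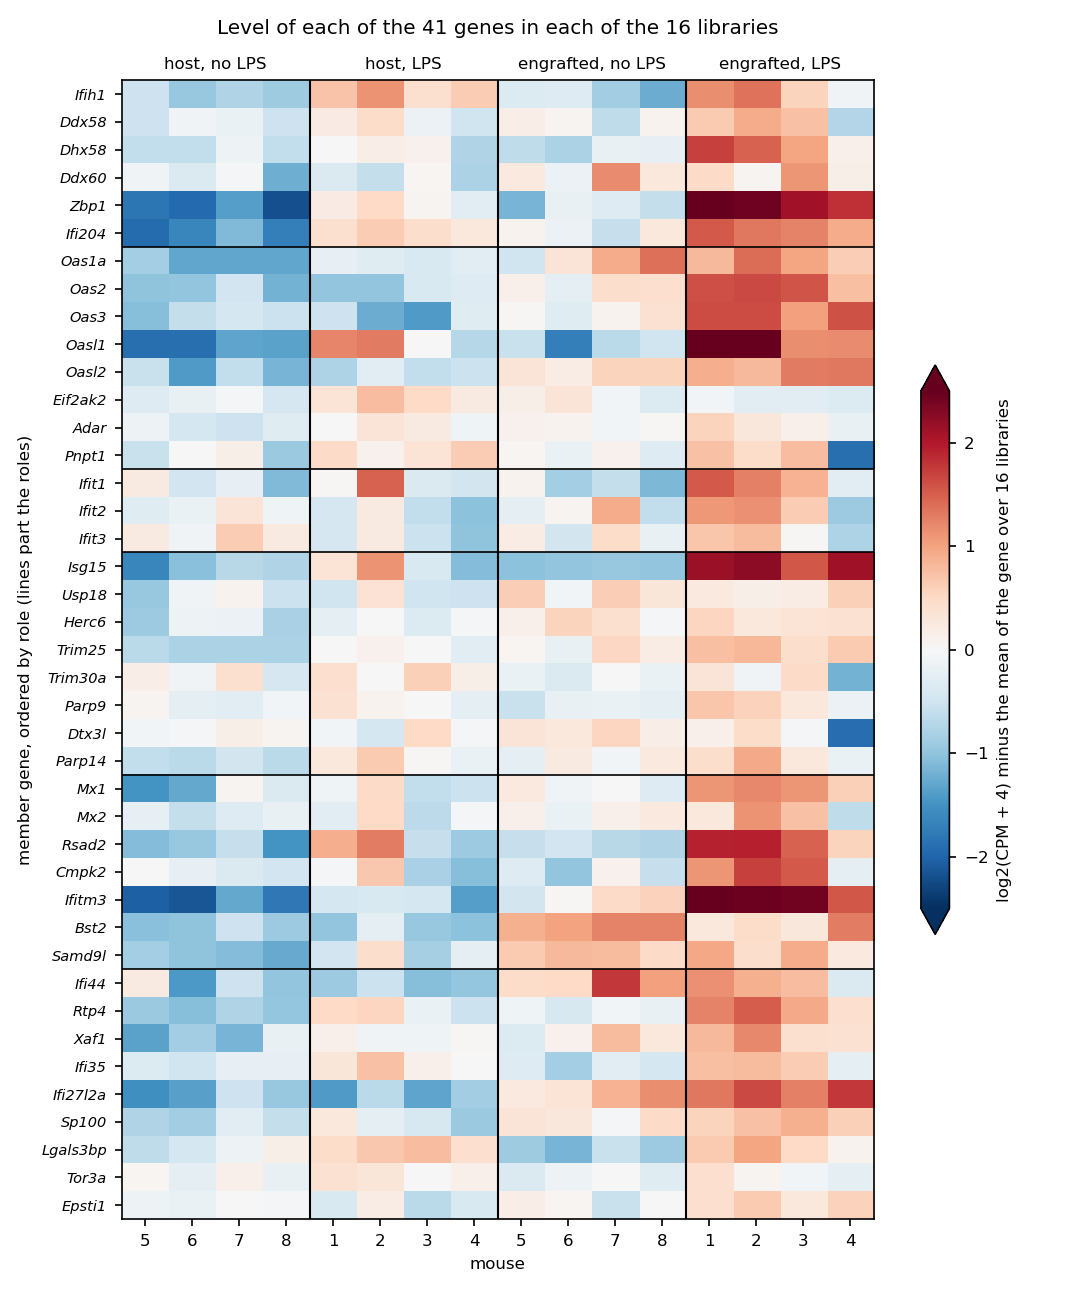
Each row is 1 of the 41 genes, each column 1 of the 16 libraries by group and mouse. Colour gives log2(CPM + 4) minus the mean of the gene over all libraries, and black lines part groups and roles. The reddest cells lie in the engrafted LPS libraries for Zbp1, Oasl1, Isg15, Rsad2 and Ifitm3, and mouse 4 is paler than mice 1 to 3 for most rows.

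By role, the members called higher without LPS were 3 of 6 tested sensors, 2 of 7 double-stranded RNA enzymes, 3 of 6 restriction factors, 1 of 8 proteins of ISG15 conjugation and ubiquitin ligases, 0 of 3 IFIT proteins and 4 of 9 other interferon-induced proteins. Ifitm3 is a membrane protein that blocks the fusion of viruses with endosomes (chr7:148195489-148196643). Its level was 170.2, 239, 328 and 351 CPM in the engrafted cells of mice 5 to 8 and 54.2, 50.5, 94.9 and 65.4 CPM in host microglia of the same mice. Every engrafted library lay above every host library, and the log2 fold change was 2.06 ± 0.21 (SE, n = 4 and 4, adjusted p = 1.65e-08). Bst2, or tetherin, holds budding virions at the cell surface (chr8:74058161-74061336). Engrafted libraries stood at 1459.6, 1583, 1849.8 and 1856 CPM and host microglia at 379, 389, 549 and 418 CPM, for a log2 fold change of 2.01 ± 0.13 (adjusted p = 2.91e-12). The populations did not overlap for this gene either, and its SE was the smallest among the 13 called members. Ifi27l2a, a small membrane protein induced by interferon (chr12:104680376-104681890), stood at 241, 258, 375 and 459 CPM in engrafted cells against 67.3, 76.7, 141 and 103 CPM in the host. The log2 fold change of Ifi27l2a was 1.81 ± 0.21 (adjusted p = 1.48e-07), again without overlap.

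Other members higher in unchallenged engrafted cells were Samd9l, a restriction factor that slows translation (2.05 ± 0.23 on the log2 scale), the sensors of nucleic acids Ifi204 (1.60 ± 0.20), Zbp1 (1.50 ± 0.31) and Ddx60 (1.05 ± 0.37), and the oligoadenylate synthetase family members Oasl2 (1.46 ± 0.20) and Oas2 (1.21 ± 0.21). Ifi44 (2.17 ± 0.44), the apoptosis factor Xaf1 (1.24 ± 0.30), the ubiquitin ligase Trim25 (1.08 ± 0.22) and the nuclear body protein Sp100 (1.05 ± 0.26) completed the called members. Samd9l separated the populations completely, with 50.4 to 64.1 CPM in engrafted cells and 12.3 to 17.6 CPM in host microglia. Oas1a, which makes the 2′-5′ oligoadenylates that activate RNase L, was too low for the test across genes. It stood at 3.02, 8.43, 14.7 and 21.6 CPM in engrafted cells, whereas no host library had more than 3 reads. Its engrafted mean was at least 3.74-fold that limit (exact permutation p = 0.0286, two-sided, the smallest that 4 libraries against 4 allow). In all, 18 of the 39 tested members had every engrafted library above every host library, against 11.3% of all genes tested.

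Isg15 and the 3 IFIT genes did not pass the test between the unchallenged populations, also at any fold. Isg15, a ubiquitin-like protein that is joined to other proteins and also secreted, averaged 50.7 ± 1.28 CPM (SD, n = 4) among engrafted libraries and 50.6 ± 14.7 CPM among host libraries, with a log2 fold change of 0.02 ± 0.20 (adjusted p = 0.953) whose sign turned with the scaling. The log2 fold changes of Ifit1, Ifit2 and Ifit3, which bind foreign RNA or translation factors, were -0.10, 0.21 and -0.19. Among the other genes of the ISG15 and ubiquitin ligase group, Usp18, which removes ISG15 from proteins (0.80 ± 0.24, adjusted p = 0.012), Herc6 (0.87 ± 0.30, adjusted p = 0.031) and Parp14 (0.72 ± 0.15, adjusted p = 0.000684) were higher in engrafted cells by less than 2-fold. Lgals3bp, a secreted glycoprotein, was the member that was lower at any fold (log2 fold change -0.58 ± 0.15, adjusted p = 0.00497), at 417 ± 73.4 against 647 ± 157 CPM. Without 1 library at a time, 9 of the 13 calls were kept in every refit. Ddx60 lost significance without engrafted mouse 7 (0.68, adjusted p = 0.232), host mouse 6 (1.05, adjusted p = 0.0733) or host mouse 8 (0.79, adjusted p = 0.118), and Sp100, Trim25 and Xaf1 fell at or under 2-fold without 1 or more libraries.

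The 14 members that rose with LPS in engrafted cells were the sensors Zbp1, Dhx58, Ifih1 and Ifi204, the synthetase family members Oasl1, Oas3 and Oas2, Ifit1, Isg15, the restriction factors Rsad2, Ifitm3 and Mx1, and Rtp4 and Lgals3bp. The median log2 fold change was 0.59 over the 40 members tested and -0.01 over all genes. Libraries of both conditions did not overlap for 19 members, against 18.3% of all genes tested toward LPS.

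Oasl1, a protein without synthetase activity that restrains Irf7 translation (chr5:115373249-115387920), showed the largest change of any member. Its engrafted libraries stood at 50.4, 20.2, 45.9 and 52.2 CPM without LPS and at 494, 659, 174 and 177 CPM with LPS, a log2 fold change of 3.11 ± 0.38 (adjusted p = 2.17e-06). Mice 1 and 2 stood far above mice 3 and 4, and mice 3 and 4 still lay above every unchallenged library. Isg15 (chr4:155573533-155574927) rose from 49.4, 50.6, 52.4 and 50.4 CPM to 479, 506, 312 and 465 CPM in engrafted cells, a log2 fold change of 3.08 ± 0.21 (adjusted p = 6.63e-10). All 4 LPS libraries were far above the unchallenged ones, which lay close together. Zbp1, a sensor of Z-form nucleic acids that can start necroptosis (chr2:173039237-173044423), rose from 23.2, 48.9, 44.2 and 35.99 CPM to 404, 323, 254 and 210.3 CPM (log2 fold change 2.97 ± 0.25, adjusted p = 1.2e-08). Here too the groups did not overlap.

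Rsad2, or viperin, which makes a chain-terminating nucleotide that stops viral RNA synthesis (chr12:27127608-27141317), rose in engrafted cells from 51.4, 55.6, 47.5 and 45.0 CPM to 309.8, 314, 225 and 118 CPM (log2 fold change 2.25 ± 0.24, adjusted p = 5.08e-07). Mouse 4 was the lowest of the LPS libraries and still above all unchallenged ones. Ifitm3 rose further from its high unchallenged level to 1764, 1307, 1262 and 698 CPM (log2 fold change 2.17 ± 0.26, adjusted p = 1.75e-06). Ifi27l2a reached 512, 645, 494 and 701 CPM with LPS, and this change of 0.79 ± 0.22 on the log2 scale was significant (adjusted p = 0.00753) but under 2-fold. Bst2 was not among the members that rose. It stood at 938, 1082, 949.8 and 1923 CPM with LPS, 3 of the 4 libraries under the lowest unchallenged library, and its log2 fold change was -0.49 ± 0.23 (adjusted p = 0.0894). Leaving out each library moved this fold change between -0.81, without the shallow library of LPS mouse 4, and -0.37, without LPS mouse 1. Of the 14 calls, 13 were kept whichever library was left out, and Mx1 fell to 0.98 on the log2 scale without unchallenged mouse 8. Mx1 is a GTPase that traps viral ribonucleoprotein, and C57BL/6 mice are known to carry a defective allele.

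In host microglia 9 members rose, Ifih1, Zbp1, Ifi204, Oasl1, Isg15, Rsad2, Ifitm3, Samd9l and Rtp4, with a median log2 fold change of 0.46 over the 38 members tested and 0.01 over all genes. Libraries did not overlap for 13 members, against 17.1% of all genes tested toward LPS. Oasl1 again showed the largest change. It stood at 17.6, 17.5, 27.9 and 27.6 CPM without LPS and at 182, 191, 76.1 and 44.5 CPM with LPS (log2 fold change 2.42 ± 0.35, adjusted p = 8.54e-06). As in the engrafted cells, mice 1 and 2 were the high pair. Zbp1 rose from 13.2, 11.7, 19.1 and 9.19 CPM to 65.4, 81.8, 59.2 and 45.9 CPM (log2 fold change 2.21 ± 0.25, adjusted p = 3.38e-07). Ifi204, a member of the family of DNA sensors related to IFI16 (chr1:175677425-175697050), rose from 29.3, 36.9, 55.03 and 34.7 CPM to 164, 192, 168 and 147 CPM, a log2 fold change of 2.06 ± 0.19 (adjusted p = 1.63e-08). The groups did not overlap for either gene.

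Some host responses rested on part of the mice. Rsad2 stood at 153 and 198 CPM in mice 1 and 2 but at 51.9 and 40.3 CPM in mice 3 and 4. Unchallenged host libraries stood at 35.1, 38.8, 51.8 and 25.5 CPM, so that mice 3 and 4 lay within or at the edge of that range. The log2 fold change of Rsad2 was 1.54 ± 0.36 (adjusted p = 0.00154). Isg15 stood at 133, 232, 79.7 and 47.3 CPM with LPS against 30.7, 48.6, 63.0 and 60.3 CPM without, so that mouse 4 lay inside the unchallenged range. The log2 fold change of 1.26 ± 0.32 (adjusted p = 0.00334) became 0.77 (adjusted p = 0.0196) without host mouse 2, which is under 2-fold. Ifitm3 stood at 173, 179 and 171 CPM in mice 1 to 3 and at 87.6 CPM in mouse 4 (log2 fold change 1.18 ± 0.22, adjusted p = 0.000174), where an unchallenged library reached 94.9 CPM. Samd9l (1.03 ± 0.30, adjusted p = 0.00872) lost significance without host mouse 2 (0.69, adjusted p = 0.0733) and fell under 2-fold without unchallenged mouse 8 (0.95), and Rtp4 (1.11 ± 0.21) fell just under 2-fold without host mouse 1 or 2. The other 6 calls were kept whichever library was left out. At any fold, 16 members rose (19.2% of all genes) and 1 fell (20.5%), which was Ifit3 (log2 fold change -0.68 ± 0.24, adjusted p = 0.0282), at 34.5 ± 13.9 CPM with LPS against 55.9 ± 12.4 CPM without.

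Both populations shared 8 called members, Ifih1, Zbp1, Ifi204, Oasl1, Isg15, Rsad2, Ifitm3 and Rtp4. These were 8 of the 14 called in engrafted cells and 8 of the 9 called in host microglia. How many of all called genes the populations shared was not counted, so these shares describe the members only. Dhx58, Oas2, Oas3, Ifit1, Mx1 and Lgals3bp were called in engrafted cells alone, Samd9l in host microglia alone, and 26 members in neither. Among these 26, Cmpk2 was too low to be tested for LPS in either population. Oas1a and Ifi44 could not be tested in host microglia. A call in one population and not in the other does not show that the responses differed, which the test of the difference addresses.

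That difference was called for Isg15, Oas3, Dhx58 and Eif2ak2. For Isg15 the LPS effect was 1.81 ± 0.43 larger on the log2 scale in engrafted cells (adjusted p = 0.0102), with every engrafted LPS library above every host LPS library. Oas3, the largest of the oligoadenylate synthetases (chr5:121203107-121227668), was low throughout. Its engrafted libraries stood at 20.1, 15.2, 21.3 and 27.0 CPM without LPS and at 69.3, 69.5, 44.2 and 67.3 CPM with LPS (log2 fold change 1.54 ± 0.26, adjusted p = 0.000105). In host microglia it stood at 7.32, 11.7, 13.6 and 12.3 CPM without and at 12.6, 5.98, 4.83 and 15.3 CPM with LPS (-0.30 ± 0.38, adjusted p = 0.564), levels close to the limit of counting. The responses differed by 1.83 ± 0.46 (adjusted p = 0.0144). Both differences were kept in each of the 16 refits that left out 1 library.

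Dhx58 (LGP2) modulates RNA sensing by Ifih1 and Ddx58 (chr11:100556198-100565585). It stood at 23.2, 20.2, 32.8 and 32.4 CPM in unchallenged engrafted cells and at 134, 112, 79.4 and 42.1 CPM with LPS. In host microglia it stood at 23.4, 23.3, 34.3 and 23.5 CPM without and at 37.8, 42.9, 41.05 and 20.9 CPM with LPS. Engrafted mouse 4 lay within the range of the host LPS libraries. The difference in response was 1.35 ± 0.40 (adjusted p = 0.0424), a call that was lost in 11 of the 16 refits without 1 library, where it ranged from 1.13 to 1.43 with adjusted p up to 0.126. Eif2ak2 encodes PKR, the kinase that stops translation on binding double-stranded RNA (chr17:79251890-79281912), and it moved the other way. Engrafted libraries stood at 92.7, 105, 78.6 and 64.8 CPM without and at 79.4, 68.3, 67.7 and 64.5 CPM with LPS (-0.32 ± 0.20, adjusted p = 0.205), whereas host libraries stood at 65.9, 72.8, 81.4 and 61.3 CPM and at 107, 144, 118 and 97.4 CPM (0.71 ± 0.17, adjusted p = 0.00204). The difference of -1.04 ± 0.25 (adjusted p = 0.00941) kept its significance in every refit and fell to 2-fold or under without engrafted LPS mouse 2 or 3, host LPS mouse 2, engrafted unchallenged mouse 5 or 6, or host unchallenged mouse 8, with -0.93 as the smallest size. For 37 members no difference in response was called. Among them Oas2 stood just outside (1.01 ± 0.32, adjusted p = 0.0599), and Zbp1 (0.76 ± 0.38, adjusted p = 0.274), Ifitm3 (0.98 ± 0.37, adjusted p = 0.125) and Samd9l (-1.06 ± 0.37, adjusted p = 0.0964) did not pass.

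**Figure D3:**
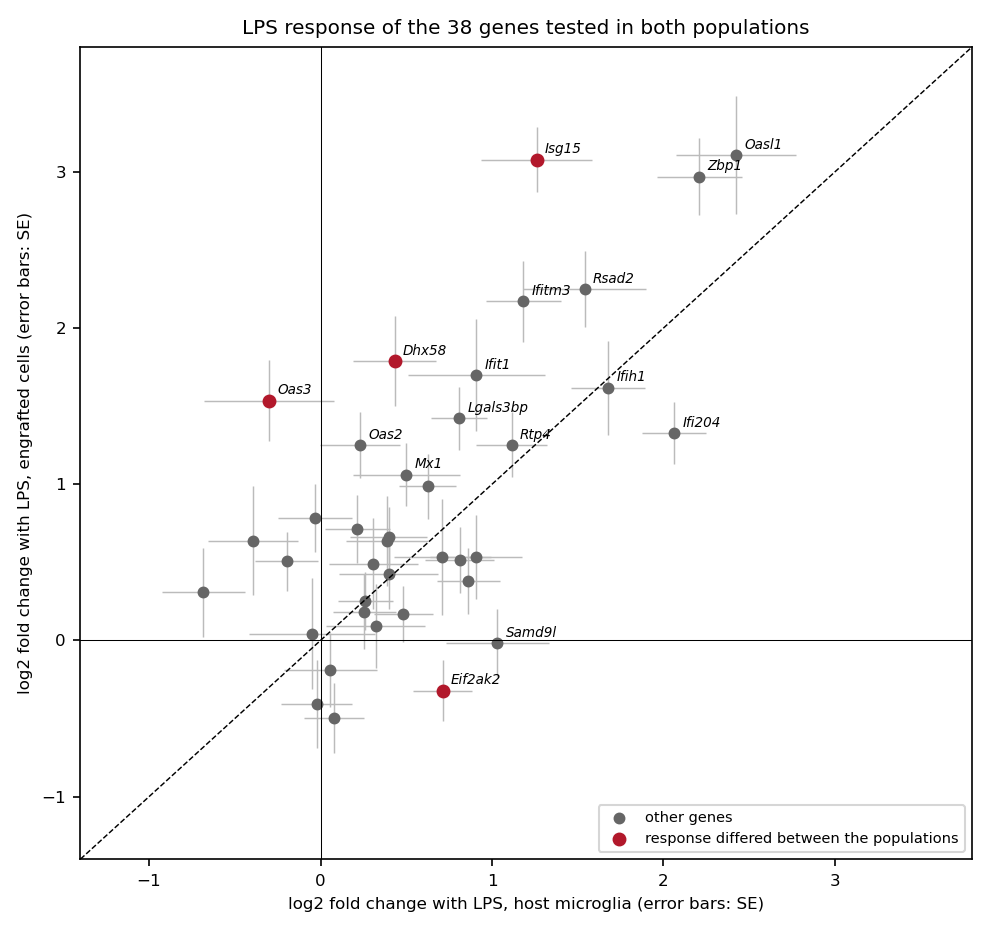
Log2 fold change with LPS in host microglia (x axis) and engrafted cells (y axis) for the 38 genes tested in both populations, with standard errors as bars and the line of equal response dashed. Red points are the 4 genes whose response differed. Isg15, Oas3 and Dhx58 lie above the line and Eif2ak2 below it.

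**Figure D4:**
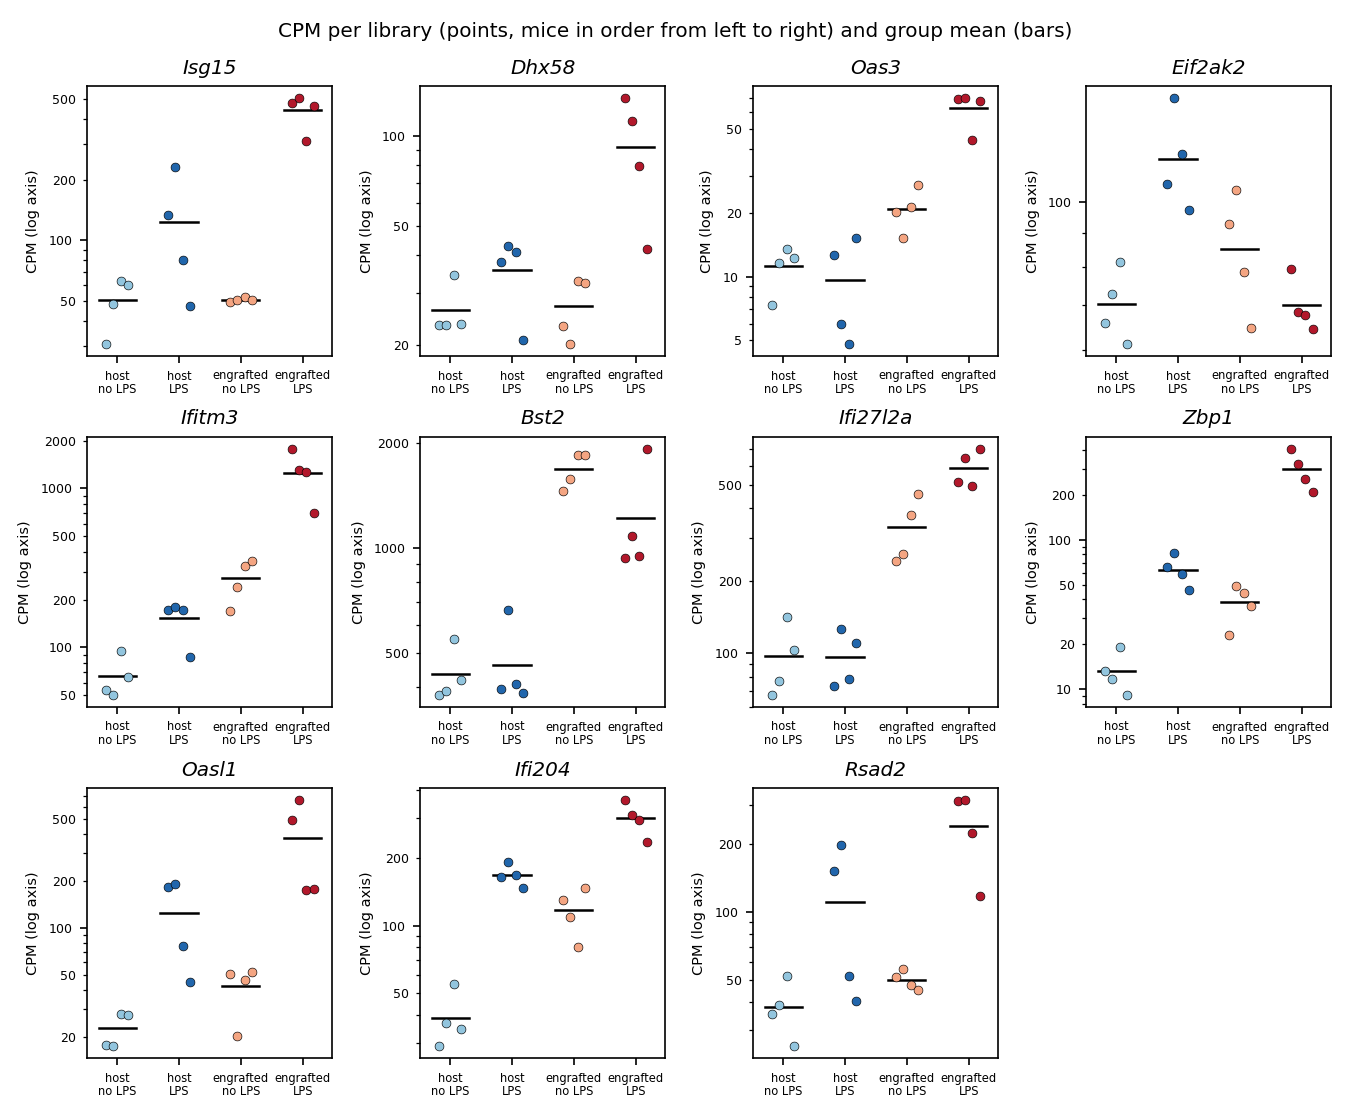
CPM per library on a log axis for the 11 genes whose values are given in full, with 1 point per mouse and a bar at the group mean. Bst2 and Ifi27l2a part the populations under both conditions, whereas Isg15 is level without LPS at 50.6 and 50.7 CPM and parts them with LPS.

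Under LPS the 15 members called higher on the engrafted side were Ifitm3, Oas3, Ifi27l2a, Zbp1, Oas2, Isg15, Cmpk2, Oasl2, Oasl1, Bst2, Dhx58, Ifit2, Mx1, Ddx60 and Sp100, with log2 fold changes from 3.06 ± 0.28 for Ifitm3 (adjusted p = 3.27e-07) to 1.08 ± 0.26 for Sp100. The median was 0.86 over the 39 members tested and -0.01 over all genes. Ifi27l2a stood at 73.4, 126, 78.5 and 109.9 CPM in host microglia with LPS, near their unchallenged range, and differed by 2.62 ± 0.23 (adjusted p = 2.23e-07). Zbp1 differed by 2.26 ± 0.23 (adjusted p = 1.21e-06). Bst2 differed by 1.43 ± 0.27 (adjusted p = 0.000759), with host libraries at 395, 666, 407 and 384 CPM, all under the lowest engrafted library. Ifi204, called higher in engrafted cells without LPS, differed by 0.86 ± 0.19 with LPS (adjusted p = 0.00301), which is under 2-fold. Its engrafted libraries stood at 129.9, 109.6, 80.3 and 147.6 CPM without LPS and at 360, 311, 295 and 235 CPM with LPS. At any fold, 21 members were higher (9.52% of all genes) and 1 was lower (7.62%), which was Eif2ak2 (-0.71 ± 0.18, adjusted p = 0.0111). All 4 of its engrafted libraries lay under all host libraries, a separation that 10.5% of all genes showed in this direction. Libraries did not overlap toward engrafted cells for 16 members, against 10.1% of all genes tested. Rsad2 differed by 1.15 ± 0.39 (adjusted p = 0.0505), and with the mouse as a block it differed by 1.29 (adjusted p = 0.000238). Samd9l, at 0.99 ± 0.29 (adjusted p = 0.0214), passed 2-fold with the block (1.01, adjusted p = 0.0196).

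Calls in favour of engrafted cells were shared by both conditions for 8 members, Ddx60, Zbp1, Oas2, Oasl2, Ifitm3, Bst2, Ifi27l2a and Sp100. This is 8 of 13 without LPS and 8 of 15 with LPS, and the like share over all called genes was not counted. Ifi204, Trim25, Samd9l, Ifi44 and Xaf1 were called without LPS only, although Ifi44 could not be tested with LPS, where its engrafted libraries (8.41 to 31.3 CPM) lay above its host libraries (3.62 to 6.98 CPM). Dhx58, Oas3, Oasl1, Ifit2, Isg15, Mx1 and Cmpk2 were called with LPS only. Cmpk2, the divergent neighbour of Rsad2 at 12763 bases, could not be tested without LPS. Of the 15 calls, 10 were kept whichever library was left out. Ddx60, Ifit2, Oasl1 and Cmpk2 lost significance in at least 1 refit, Oasl1 without engrafted mouse 2 (1.23, adjusted p = 0.0643) or host mouse 3 (1.45, adjusted p = 0.0513), and Sp100 fell under 2-fold without host mouse 4 (0.91). Without both libraries of mouse 4, 18 members were called.

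The members did not respond alike among mice. Averaged over the 41 members, the level was 5.90 ± 0.13 log2 CPM (SD, n = 4) in unchallenged engrafted cells and 5.25 ± 0.17 in unchallenged host microglia. With LPS it was 6.97, 7.004, 6.74 and 6.17 in the engrafted cells of mice 1 to 4 and 5.88, 6.16, 5.66 and 5.52 in their host microglia. Mouse 2 was thus the highest and mouse 4 the lowest of the LPS mice in both populations. Mouse 4 had the lowest CPM for 29 of the 41 members in engrafted cells, against 39.6% of all genes tested, and for 24 of 41 members in host microglia, against 28.2% of all genes. Mouse 2 had the highest CPM for 21 members in engrafted cells, against 24.6% of all genes tested, and for 29 in host microglia, against 32.3% of all genes. The engrafted mean exceeded the host mean in each of the 8 mice, by 0.57 to 0.76 without LPS and by 0.65 to 1.08 with LPS. In a mouse, 26 to 39 of the 41 members were higher in the engrafted library than in the host library. The same share over all genes was not taken, so these values describe the members only. The shallow depth of the engrafted library of mouse 4 stands beside its low rank, and its part was not tested.

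**Figure D5:**
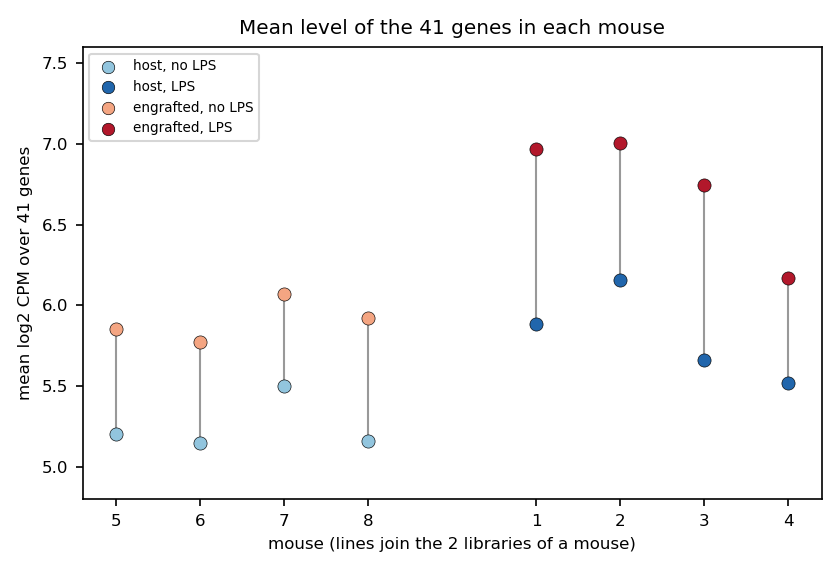
Mean log2 CPM over the 41 genes in the engrafted and host library of each mouse, joined by a line. The engrafted point lies above the host point in all 8 mice, and LPS mouse 4 lies lowest of the LPS mice in both populations, at 6.17 and 5.52.

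The other genes of the pathway were read from lists that were set beside the members. None of the 11 interferon genes listed could be tested. Ifnb1 had 16 reads over all 16 libraries and at most 6 in 1 library, Ifng had 7 reads, and the other 9 had none. Of the 7 receptor and kinase genes, Ifnar1, the interferon receptor chain, was higher in unchallenged engrafted cells at 187 ± 12.3 against 57.5 ± 3.83 CPM (log2 fold change 1.75 ± 0.13, adjusted p = 9.81e-11). It fell with LPS in engrafted cells to 76.3 ± 24.3 CPM (-1.30 ± 0.20, adjusted p = 2.91e-05) and stood at 58.0 ± 2.37 CPM in host microglia (adjusted p = 0.988), a difference in response of -1.30 ± 0.25 (adjusted p = 0.00129). No other gene of that list was called in any comparison.

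Of 8 transcription factors, Irf7, the factor that amplifies interferon production, was called in most comparisons. It stood at 164 ± 25.3 CPM in unchallenged engrafted cells and at 79.8 ± 9.82 CPM in host microglia (log2 fold change 1.09 ± 0.14, adjusted p = 1.28e-06). With LPS it reached 783 to 1376 CPM in engrafted cells (2.69 ± 0.22, adjusted p = 7.94e-09) and 109 to 199 CPM in host microglia (0.99 ± 0.18, adjusted p = 0.00013, under 2-fold), and the responses differed by 1.70 ± 0.28 (adjusted p = 0.000314). Stat2 rose in both populations, by 1.08 ± 0.20 and 1.14 ± 0.19 on the log2 scale. Among 7 negative regulators and exonucleases, 3 rose in engrafted cells (10.2% of all genes) and 2 in host microglia (7.66%). Socs3, which blocks Jak signalling, rose by 3.52 ± 0.24 and 1.41 ± 0.19, and Isg20, an exonuclease, rose by 2.36 ± 0.29 in engrafted cells. Both had a response that differed between the populations (2.10 ± 0.32 and 1.91 ± 0.46). A difference in response does not give the level reached with LPS. Between the unchallenged populations, 0 of these 7 genes were called higher in engrafted cells and 1 lower (6.25% and 4.73% of all genes). The lowest log2 fold change was -1.90. With LPS 1 was called higher and 0 lower (6.73% and 4.34% of all genes). Among 12 sensors, adaptors and kinases, 11 could be tested for LPS in each population. In engrafted cells 3 rose and 2 fell (10.2% and 11.3% of all genes). In host microglia 2 rose and 3 fell (7.66% and 10.4% of all genes). Tlr7 rose less in engrafted cells (1.08 ± 0.20) than in host microglia (2.15 ± 0.18), a difference of -1.08 ± 0.27 (adjusted p = 0.0167). Between the unchallenged populations, 0 of the 10 tested genes of this list were called higher in engrafted cells and 2 lower (6.25% and 4.73% of all genes). With LPS 1 of the 11 tested was called higher and 2 lower (6.73% and 4.34% of all genes).

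Other lists of responsive genes were set beside the members, to be read against the shares of all genes called with LPS (10.2% higher and 11.3% lower in engrafted cells, 7.66% and 10.4% in host microglia). Of 45 further interferon-stimulated genes, 44 were in the count table. In engrafted cells 14 of the 39 tested rose and 3 fell, and in host microglia 7 of the 34 tested rose and 2 fell, with median log2 fold changes of 0.66 and 0.17. Of 17 interferon-inducible GTPases, 11 could be tested in engrafted cells, where 5 rose and 3 fell, and 8 in host microglia, where 1 rose and 1 fell. Of 17 targets of NF-kappaB, a factor that Tlr4 signalling activates, 14 of 17 tested rose in engrafted cells and 8 of 15 in host microglia, with medians of 1.79 and 1.27, above those of the members at 0.59 and 0.46.

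Markers of engrafted brain macrophages and of other cells moved with the comparisons. The 6 monocyte markers summed to 197 to 324 CPM in unchallenged engrafted libraries and to 1085 to 2140 CPM with LPS, highest in mouse 1, against 9.57 to 25.5 CPM in all host libraries, where Chil3 had no read without LPS. The 8 neutrophil markers summed to 259 to 1150.2 CPM in unchallenged engrafted cells and to 48.8 to 499.99 CPM with LPS, against 0.0 to 15.0 CPM in host libraries, where Ly6g, Retnlg and Mmp8 had no read. The markers of engrafted brain macrophages (Ms4a7, Apoe, Clec12a, Cd38, Cybb and Axl) summed to 46625 to 91337 CPM in engrafted and to 3039 to 7675 CPM in host libraries. The study named all of them but Clec12a for engrafted cells from its own RNA-seq, so this separation is no independent support. Markers of plasmacytoid dendritic cells, which are strong producers of interferon, summed to 70.3 CPM or less, and those of B cells to 74.2 CPM or less, with Cd79a and Pax5 without a read. T and NK cell markers reached 22.4 CPM. Astrocyte markers summed to 155 to 305 CPM in host and 11.2 to 43.8 CPM in engrafted libraries. Of these 6 markers, 1 passed the filter for low counts between the populations, without as with LPS. Oligodendrocyte markers summed to 86.6 to 218 CPM, endothelial markers to 40.5 CPM or less and neuronal markers to 157 CPM or less. The part of these cells in the levels of the members was not tested.

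Some values depend on how reads were assigned. The reads were counted only where they map uniquely, so that the levels of members with close copies (Ifit3, Oas1a, Oasl1 and Oasl2, Ifi204, Trim30a and Ifi27l2a) are uncertain. Dtx3l and Parp9 overlap by 557 bases on opposite strands and were counted by strand.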

How the data were processed

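RNA was sequenced from 16 libraries, 4 of engrafted cells and 4 of host microglia in each of the LPS and unchallenged groups. The deposited table holds raw counts, the reads of each gene with no scaling applied by the authors. Reads had been mapped to NCBI37 (mm9) with hisat (0.1.5 in the submitters' processing notes), uniquely mapped reads were kept, and HOMER counted those on the sense strand of the exons of each RefSeq gene. Removal of PCR duplicates is not given in the sources used here. Counts were tested in R 4.3.3 with edgeR 4.0.16 after filterByExpr (at a minimum count of 10 and a total of 15), with TMM scaling, quasi-likelihood tests and Benjamini-Hochberg adjustment over all genes tested. Each SE is the fold change divided by the root of its F statistic. CPM used TMM library sizes over all 16 libraries, and log2 CPM a prior count of 2. The 5 comparisons were engrafted against host with and without LPS, LPS within each population, and the interaction on all libraries.

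The study's methods name no term for the mouse. Both populations came from the same animals, so a fit with the mouse as a block was an alternative. After group means were removed, r between both libraries of mice 1 to 8 was 0.148, 0.0168, 0.209, 0.127, 0.0283, -0.0324, 0.0474 and 0.0828. The replicates are separate mice. Other alternatives were RLE size factors, library totals, no filter, at least 10 reads in every library, DESeq2 1.42.0, limma-trend (limma 3.58.1), all 16 libraries in one fit, any fold, and leaving out each library. Leaving out both libraries of mouse 4 was added after the data were seen.

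The members and lists were chosen with earlier results of these data known. Some listed genes are not reported here and were left out of the lists. Values per library are given for Isg15, for members called in the interaction, for the 3 called members of at least 50 CPM with the largest change in each comparison, and for called members against the majority. Tests were checked on simulated counts. Upstream windows of 250 bases were read from the NCBI37 genome.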

Additional observations from a re-analysis of the deposited data

Results flagged for a closer look

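Each of the 11 genes named in full and the mean over the 41 members was searched for a library far from the other 3 of its group, with Dixon's test. Of 48 groups, 6 held such a library, where chance alone gives about 1 in 20. Dhx58 stood apart in unchallenged host mouse 7 (34.3 CPM, the highest of its group) and Oas3 in engrafted LPS mouse 3 (44.2 CPM, the lowest). Ifitm3 stood apart in host LPS mouse 4 at 87.6 CPM, the lowest of its group. Bst2 stood apart in engrafted LPS mouse 4, where 1923 CPM was the highest of the group although most other members were lowest in that library, and in host LPS mouse 2 (666 CPM, the highest). The mean over the members stood apart in unchallenged host mouse 7, at 5.498 log2 CPM, the highest of its group.

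The LPS response differed between engrafted cells and host microglia, in edgeR's interaction test, for Isg15 (1.81 larger in engrafted cells on the log2 scale), Oas3 (1.83), Dhx58 (1.35) and Eif2ak2 (-1.04). Eif2ak2 was higher with LPS in host microglia at an adjusted p below the threshold (0.71, adjusted p = 0.00204), whereas its value in engrafted cells was -0.32 (adjusted p = 0.205).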

How the results depend on the processing

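Members called at any fold, in place of 2-fold, numbered 20 higher and 1 lower in engrafted cells without LPS, 1 lower with LPS (21 higher), and 16 higher and 1 lower for LPS in host microglia. For the difference in LPS response, 5 members were higher without a filter for low counts and 5 without both libraries of mouse 4, in each case with Oas2 and Ifitm3 added, and limma-trend called 0 lower (Eif2ak2 -0.99). Leaving out each library gave 10 to 16 members higher in engrafted cells without LPS, 13 to 21 with LPS, 14 to 17 for LPS in engrafted cells, 6 to 10 for LPS in host microglia, and 2 to 5 higher and 0 to 1 lower for the difference in response. The difference for Dhx58 was not called with library totals (1.29, adjusted p = 0.0588) or limma-trend (1.16, adjusted p = 0.0821). Oasl1 was not called between the LPS populations in DESeq2 (1.64, adjusted p = 0.0624). Limma-trend called 10 members higher in engrafted cells without LPS and 13 with LPS. It called 14 higher for LPS in engrafted cells, 8 for LPS in host microglia and 2 for the difference in response. DESeq2 called 13, 15, 14, 9 and 4 higher in the same order. Signs turned for values that no setting called: Isg15 between the unchallenged populations with library totals (-0.058), without a filter (-0.037) and without host mouse 5 or 6 (-0.13 to 0.14 over the refits without 1 library), Dhx58 there with library totals (-0.013) and without engrafted mouse 7 or 8 (-0.034 to 0.24), Ifi27l2a for LPS in host microglia in limma-trend (0.0067) and without host mouse 1, 3 or 7 (-0.17 to 0.20), and Bst2 there without host mouse 2 (-0.13 to 0.20). The cause of these shifts was not tested. The mouse as a replicate block left 13 members called without LPS and 3 higher and 1 lower for the difference in response, and gave 17 with LPS, where it added Rsad2 (1.29, adjusted p = 0.000238) and Samd9l. It changed no other call. Library totals put the median log2 fold change of all genes between the LPS populations at -0.16 against -0.01 with TMM, and the share of higher calls at 48.7% against 60.8%, with 13 members called higher. At 2.39 to 8.41 CPM for 3 reads, the levels of Oas1a, Cmpk2, Ifi44 and host Oas3 were limited by depth.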
